A study of Mus musculus with 19 samples.

Results

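The mouse medial prefrontal cortex libraries described here fell into a bulb-rich set and a bulb-poor set according to how much RNA of the olfactory bulb they held. A library was called bulb-rich when it had more than 20 CPM (reads counted for a gene in every M reads counted in its library, after TMM scaling) of Cdhr1, a cadherin-related gene of bulb projection neurons, so the sets were grouped by a measured value. By this rule 7 of the 14 control, LPS and sedanolide libraries were bulb-rich and 7 were bulb-poor, of 19 libraries in all. The bulb-rich set held 2 control libraries (1 and 5), 3 LPS libraries (2, 3 and 4) and 2 sedanolide libraries (3 and 4). The bulb-poor set held 2 control, 2 LPS and 3 sedanolide libraries.

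All mice were wild type (WT). Controls (n = 4) were given saline by gavage over 8 days together with intraperitoneal saline over 5 days. LPS mice (n = 5) had the same saline gavage, begun 3 days ahead of the injections, and were injected with the bacterial cell wall component LPS at 1 mg/kg on 5 days in a row. Sedanolide mice (n = 5) were gavaged with sedanolide, a phthalide of celery, at 20 mg/kg over 8 days and injected with saline. Co-treated mice (n = 5) had both agents, and none of their libraries passed the Cdhr1 threshold, so they were left out of the comparisons. Thus 0 of 5 co-treated libraries and 7 of 14 in the other groups were bulb-rich (Fisher's exact test, two-sided, p = 0.106). The rule was set with results of these libraries known, so this p is a description only. With 5 co-treated libraries a difference in share is neither shown nor excluded. The labels give no age. They do not say whether replicates were different animals, and p-values therefore cover only the spread among the libraries at hand.

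The olfactory bulb lies directly in front of the prefrontal cortex. Axons of olfactory sensory neurons, wrapped by olfactory ensheathing glia, enter its glomeruli and excite the mitral and tufted cells, the glutamatergic projection neurons that send the signal on to the olfactory cortex. GABAergic granule cells and periglomerular cells, some of them dopaminergic, inhibit these neurons, and they are replenished through life by neuroblasts that migrate in from the ventricular wall. In bulk tissue, fewer cells of a type and less RNA per cell cannot be told apart.

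Library totals ranged from 19.08 to 24.32 M counts in bulb-rich libraries and from 19.17 to 23.30 M in bulb-poor ones (M, mega), so the depth of both sets was alike. Bulb-rich libraries had 24547 to 25620 genes with at least 1 count (median 25091), and bulb-poor libraries had 23844 to 24910 (median 24295). Mitochondrially encoded genes took 6.52% to 9.74% of counts in bulb-rich libraries (median 7.80%) and 9.04% to 11.7% in bulb-poor ones (median 9.78%). The part of these differences in the results below was not tested.

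Cdhr1 had 448 CPM in control 1, 215 in control 5, 182 in LPS 2, 58.1 in LPS 3, 176 in LPS 4, 223 in sedanolide 3 and 81.1 in sedanolide 4. In the bulb-poor libraries it ranged from 3.83 to 9.996 CPM with a median of 5.89. No library lay near the threshold, since LPS 3 was the closest above it and LPS 1, at 9.996 CPM, the closest below. The co-treated libraries had 2.29 to 7.41 CPM, the range of the bulb-poor ones or below it.

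**Figure D1:**
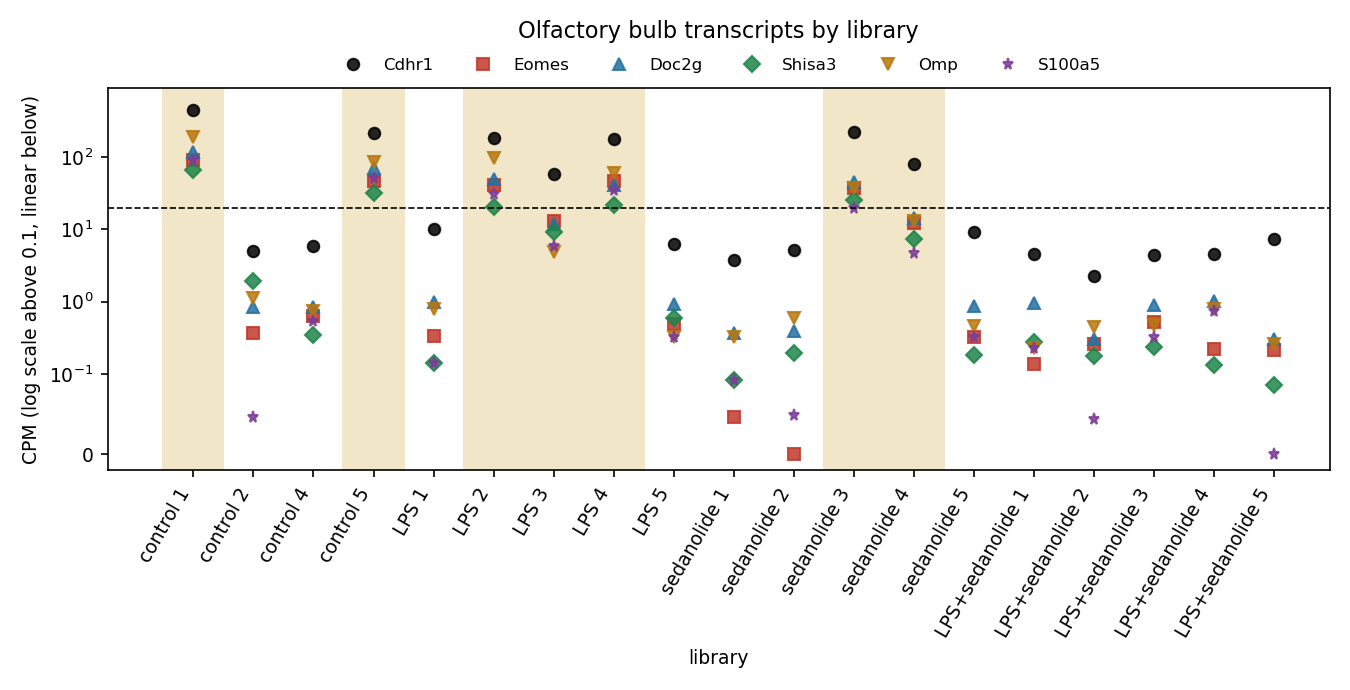
CPM of 6 olfactory bulb genes (symbols) in each of the 19 libraries, on an axis that is logarithmic above 0.1 and linear below. Shading marks the 7 bulb-rich libraries and the dashed line the threshold of 20 CPM on Cdhr1, and each gene is higher in every shaded library than in any other.

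Because Cdhr1 of the same libraries made the sets, every comparison of bulb-rich with bulb-poor libraries is a description of what went with Cdhr1, and no p is given for a gene. The fit was edgeR's quasi-likelihood model over 17470 genes with treatment group as covariate. It called 1461 genes higher in bulb-rich libraries (8.36% of the genes tested) and 1063 lower (6.08%) at a Benjamini-Hochberg adjusted p under 0.05. The higher genes moved further: 493 of them were at least 2-fold higher and 98 at least 8-fold, against 37 of the lower genes at 2-fold or more. The CPM ranges did not overlap for 277 genes above (1.59%) and 86 below (0.492%). The number of calls varied with single libraries, from 696 without sedanolide 3 to 3814 without LPS 3, and was 1062 without control 1, the library with the most Cdhr1. Fits without control 2, control 4, LPS 2, LPS 5, sedanolide 1 or sedanolide 2 also lowered it by more than 1.5 times, to between 964 and 1479. Within 1 treatment group at a time, 555 genes were called in controls, 1 in LPS and 22 in sedanolide libraries.

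Bulb projection neuron genes were higher in bulb-rich libraries. Of 12 members 11 were tested, 1 of them Cdhr1 itself, which made the sets. Of the other 10, 9 were called higher and none lower, beside 8.36% and 6.08% of all genes tested. Their median log2 fold change was 4.64 beside -0.02 for all genes tested. Eomes, the T-box transcription factor of mitral and tufted cells, had 12.3 to 92.5 CPM in bulb-rich libraries (median 41.9) and 0 to 0.64 in bulb-poor ones (median 0.33). Its log2 fold change was 6.97 ± 0.47 (SE, as throughout unless stated). Tbx21, a second T-box factor of these neurons, had 3.19 to 18.0 CPM against 0 to 0.27, with a log2 fold change of 6.49 ± 0.53. Neither gene overlapped between the sets, and for both control 1 was the highest library. Doc2g, of the Doc2 family of C2-domain proteins, ran from 12.02 to 118 CPM (median 44.8) against 0.37 to 0.99 (median 0.84). Shisa3, of a family that in Xenopus restrains Wnt and FGF signalling, ran from 7.48 to 65.6 CPM (median 21.9) against 0.092 to 1.92 (median 0.20). Their log2 fold changes were 5.92 ± 0.43 and 5.76 ± 0.45. The highest bulb-poor value of Shisa3 was that of control 2, and the next was 0.59 CPM in LPS 5.

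The homeobox gene Barhl2 had 0.76 to 5.91 CPM in bulb-rich libraries and no count in any bulb-poor library. Set against a floor of 3 counts over the 7 bulb-poor libraries together, it was at least 122-fold higher. The median of 4.64 is the same with Barhl2 at that bound, since the bound too lies above it. The other tested members of the list moved less. Reln, the secreted reelin of mitral cells and of cortical interneurons, had 66.0 to 194 CPM against 42.5 to 59.7 (log2 fold change 1.13 ± 0.16), and Ntng1, the axonal adhesion protein netrin-G1, had 16.0 to 54.2 against 8.95 to 17.4 (1.21 ± 0.18). Ebf3, a transcription factor of the Olf/EBF family, was at 1.33 to 3.66 against 0.40 to 1.18 (1.70 ± 0.29), and Lbhd2 at 1.41 to 11.5 against 0.054 to 0.93 (3.52 ± 0.43). Slc17a6, the vesicular glutamate transporter VGLUT2, which thalamic and mitral cells use, was not called, with 14.1 to 23.4 CPM against 10.7 to 22.8. Uncx was not tested, at no more than 0.22 CPM in any of the 14 libraries.

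The promoters of Cdhr1, Doc2g and Shisa3 are shown because Cdhr1 chose the libraries and the other 2 followed it most closely by rank among the projection neuron genes of the correlations below. The sequences are RefSeq's on GRCm38.p6, from 250 bases before the annotated start to 50 after it, read 5′ to 3′ on the gene's strand, and the capital letter is the annotated first transcribed base. They lie at chr14:37098298-37098597 (minus strand) for Cdhr1, chr19:4003135-4003434 (plus) for Doc2g and chr5:67607633-67607932 (plus) for Shisa3.
Cdhr1: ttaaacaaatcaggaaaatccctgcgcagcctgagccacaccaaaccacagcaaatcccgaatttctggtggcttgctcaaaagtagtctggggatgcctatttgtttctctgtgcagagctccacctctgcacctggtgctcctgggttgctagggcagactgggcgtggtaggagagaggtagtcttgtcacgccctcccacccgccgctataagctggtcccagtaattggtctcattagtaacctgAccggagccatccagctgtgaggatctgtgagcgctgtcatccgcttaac
Doc2g: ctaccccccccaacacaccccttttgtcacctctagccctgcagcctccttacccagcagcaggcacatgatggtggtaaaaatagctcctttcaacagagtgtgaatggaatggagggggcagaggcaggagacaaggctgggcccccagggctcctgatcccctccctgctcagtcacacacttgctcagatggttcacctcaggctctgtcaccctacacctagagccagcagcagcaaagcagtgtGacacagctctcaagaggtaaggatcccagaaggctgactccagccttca
Shisa3: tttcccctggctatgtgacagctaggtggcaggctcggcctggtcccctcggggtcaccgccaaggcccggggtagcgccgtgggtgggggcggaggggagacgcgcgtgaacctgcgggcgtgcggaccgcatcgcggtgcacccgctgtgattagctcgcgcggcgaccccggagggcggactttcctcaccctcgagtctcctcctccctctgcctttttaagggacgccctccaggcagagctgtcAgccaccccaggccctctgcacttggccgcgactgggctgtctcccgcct
They were searched on both strands for the Olf/EBF palindrome TCCCNNGGGA, which 0.904% of the 32851 promoters of the same length hold, and for the T-box site GGTGTGA, which 3.98% hold. Neither was found in these 3 promoters or in those of Eomes and S100a5, so no match of one overlapped the other. This says only that these letters are not in these windows.

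The folds of olfactory sensory neuron transcripts varied widely. Of 12 members, all tested, 6 were called higher and 1 lower, beside 8.36% and 6.08% of all genes tested. The median log2 fold change was 0.85. Omp, the olfactory marker protein of mature sensory neurons, had 4.85 to 188 CPM in bulb-rich libraries (median 60.6) and 0.32 to 1.12 in bulb-poor ones (median 0.59), a log2 fold change of 6.58 ± 0.66. S100a5, a calcium-binding protein of the same cells, had 4.74 to 92.7 CPM (median 31.4) against 0.047 to 0.54 (median 0.14), a log2 fold change of 7.12 ± 0.62. Stoml3, a stomatin-like membrane protein, had 0.66 to 35.1 CPM against 0.047 to 0.51 (5.79 ± 0.64). LPS 3 was the lowest bulb-rich library for Omp and Stoml3 and sedanolide 4 for S100a5, and in none of these genes did the sets overlap. Rtp2, which carries odorant receptors to the cell surface, had 142 counts in the bulb-rich and 3 in the bulb-poor libraries, a ratio of 41.9 with an exact 95% interval of 14.1 to 206 that covers counting error only. Its relative Rtp1 (1.41 ± 0.42) and the cyclic nucleotide-gated channel Cnga2 (1.76 ± 0.42) were called higher with overlapping ranges.

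Several other genes of the same transduction pathway were not called. Adcy3, the adenylyl cyclase of sensory cilia, was at 22.2 to 39.5 CPM against 24.3 to 39.1 and was not called, nor were Gng13, Gng8, Ano2 and Cnga4. Gnal, the G protein subunit of olfactory cilia that striatal neurons also use, was called lower, with 63.2 to 160 CPM against 136 to 181 (log2 fold change -0.49 ± 0.13). Reads of olfactory receptor genes numbered 329 to 1027 per bulb-rich library (median 502) and 233 to 355 per bulb-poor library (median 282). Between 57 and 299 of the 1148 receptor genes in the table had a count in a bulb-rich library, and between 42 and 60 in a bulb-poor one. Only 8 receptor genes were tested and 2 were called higher, beside 8.36% of all genes tested. The 2 were Or4b1d (5.16 ± 0.79) and Or10ad1 (0.88 ± 0.23). The counting is not stated to use strand, so reads of a receptor gene and of one overlapping it cannot be told apart.

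The 2 lists of the bulb's inhibitory neurons had smaller medians than the projection neuron genes, but their members varied widely. Log2 fold changes ran from 0.37 to 4.08 for granule cell genes and from 0.09 to 4.64 for periglomerular genes. Of the 11 granule cell genes 9 were called higher and none lower, beside 8.36% and 6.08% of all genes tested (median log2 fold change 1.72). Meis2, a homeobox factor of granule cells, had 214 to 678 CPM (median 413) against 162 to 214 (median 183), and Sp8, a zinc finger factor of bulb interneurons, had 19.7 to 143 against 2.17 to 7.44. Their log2 fold changes were 1.12 ± 0.19 and 4.08 ± 0.41. The interneuron homeobox genes Dlx1 (2.23 ± 0.29), Dlx2 (2.36 ± 0.37), Dlx5 (2.51 ± 0.30) and Dlx6 (1.72 ± 0.23) were all called higher. Etv1 and Pcp4, which deep cortical neurons also express, were not called. Gad1, which makes GABA, had 358 to 1559 CPM against 228 to 280 (1.74 ± 0.23), with no overlap. Gad2 (0.76 ± 0.14) and the vesicular GABA transporter Slc32a1 (1.10 ± 0.18) were called higher with overlap.

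Among 9 periglomerular genes 6 were called higher and none lower, beside 8.36% and 6.08% of all genes tested, with a median of 1.78. Th, tyrosine hydroxylase, the first enzyme of dopamine synthesis, had 22.3 to 182 CPM (median 78.3) against 2.00 to 3.82 (median 3.18), a log2 fold change of 4.64 ± 0.40. Slc6a3, the dopamine transporter, had 1.10 to 8.74 CPM against 0.099 to 0.81 (3.52 ± 0.48). Calb2, the calcium-binding protein calretinin, rose from 15.4 to 25.7 CPM in the bulb-poor to 89.5 to 461 in the bulb-rich libraries (3.49 ± 0.31), and Trh, the thyrotropin-releasing hormone precursor, from 0.83 to 3.56 to a range of 10.4 to 86.0 (4.13 ± 0.34). Other genes of the dopamine pathway were not called: Ddc, the next enzyme, was at 0.09 ± 0.14, Slc18a2, the vesicular monoamine transporter, at 0.19 ± 0.13, and the nuclear receptor Nr4a2 at 0.54 ± 0.19.

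Of 9 neuroblast genes 6 were called higher, beside 8.36% of all genes tested, with a median of 1.36. Dcx, doublecortin, a microtubule protein of migrating neurons, had 33.3 to 187 CPM (median 96.6) against 22.7 to 40.2 (median 30.7), and its 2 sets overlapped through LPS 3 (log2 fold change 1.64 ± 0.24). Sp9 (2.52 ± 0.39), Sox4 (1.20 ± 0.20) and Igfbpl1 (2.15 ± 0.62) also overlapped. None of the 10 genes of dividing cells was called in either direction (median -0.13), Mki67 being at 0.86 to 5.11 CPM against 1.53 to 4.74.

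Ensheathing glia genes gave 6 of 9 called higher, beside 8.36% of all genes tested, and a median of 1.61. Foxd3, a forkhead factor of neural crest-derived glia, had 1.57 to 17.0 CPM in bulb-rich libraries, against 2 counts in all bulb-poor libraries together. The ratio of the pooled counts was 505 with an exact 95% interval of 140 to 4180, which covers counting error only and not the spread between libraries. Frzb, a secreted Wnt antagonist, had 23.95 to 120 CPM (median 66.6) against 6.28 to 26.6 (median 13.5), a log2 fold change of 2.12 ± 0.38, and overlapped through LPS 3 and sedanolide 1. Fabp7, a fatty acid-binding protein of glia, was higher by 2.01 ± 0.30, Ngfr, the p75 neurotrophin receptor, by 1.61 ± 0.34 and the serine protease Prss56 by 3.03 ± 0.36. S100b and Npy, which other brain cells express strongly, were not called.

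**Figure D2:**
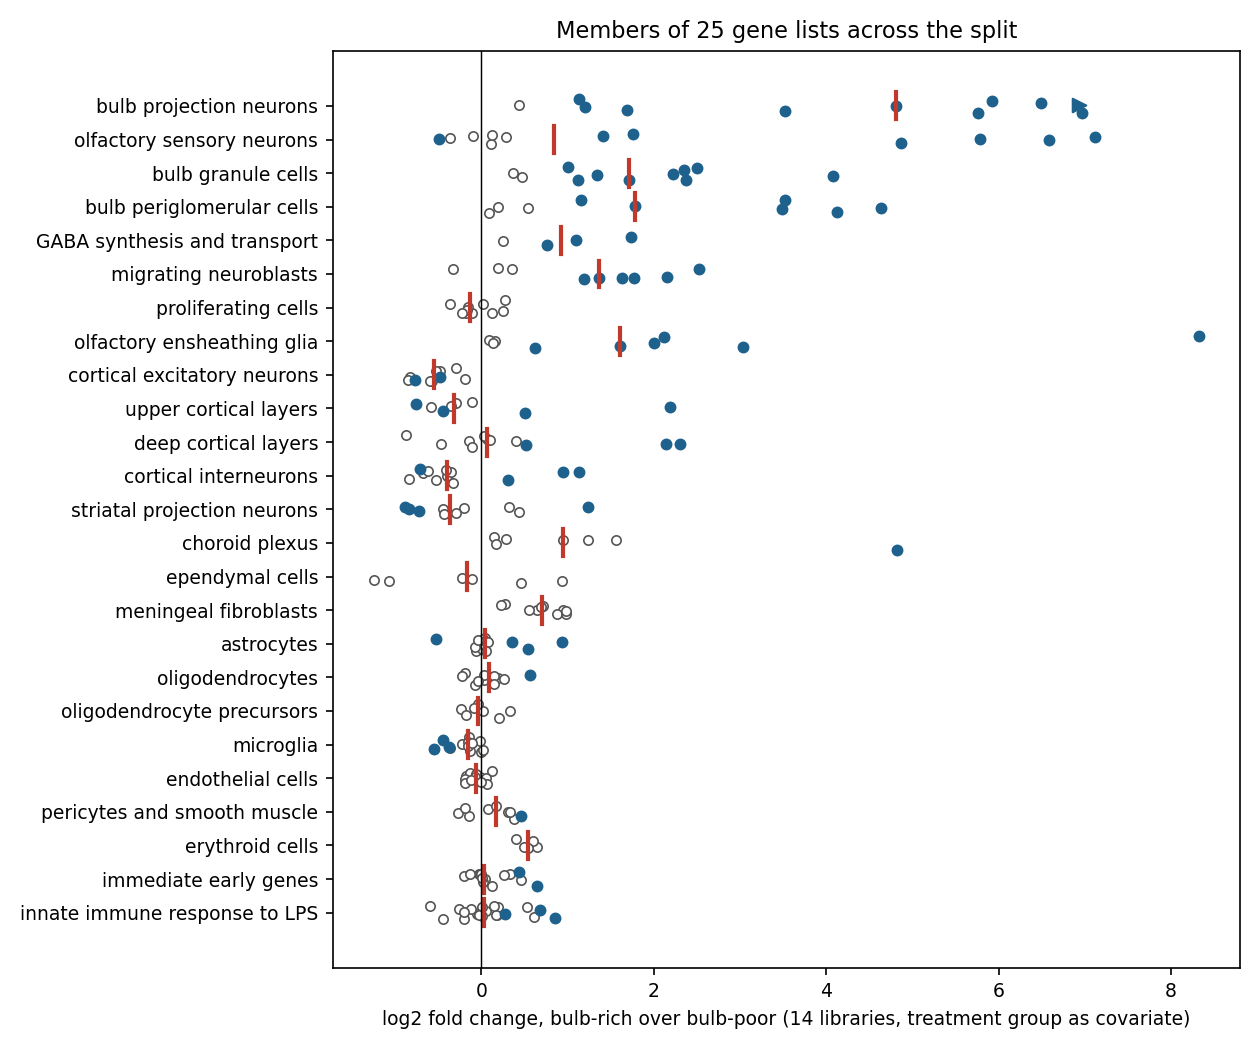
Log2 fold change of bulb-rich over bulb-poor libraries for each tested member of the 25 gene lists (filled, called at an adjusted p under 0.05; open, not called; red bar, list median; triangle, lower bound for Barhl2, which has no count in the bulb-poor set). The projection neuron list is drawn with Cdhr1, the gene of the rule, and its median is 4.64 without it. The medians of the 17 lists of cells and responses outside the bulb range from -0.55 to 0.95.

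The 15 genes with the largest folds among called, protein-coding genes at a mean log2 CPM of at least 1 had no overlap between the sets. Besides those already given, they were Ms4a15, Kcnk15, Scgn, Frmd7, Lgr5 and Aqp1. Ms4a15, of the membrane-spanning 4A family, had 6.55 to 62.6 CPM (median 23.9) against 0 to 0.16 (median 0.05), and its fitted log2 fold change of 8.44 ± 0.58 was one of the largest. Scgn, the calcium-binding protein secretagogin of bulb interneurons, had 6.09 to 45.8 CPM against 0.092 to 1.12 (5.55 ± 0.48). Lgr5, a receptor for R-spondins, had 8.79 to 76.5 CPM against 0.56 to 2.12 (4.90 ± 0.46). Kcnk15, a two-pore potassium channel, gave 6.71 ± 0.64 and Frmd7, a FERM-domain protein of neurites, gave 5.49 ± 0.48. Aqp1, the water channel aquaporin 1, had 4.19 to 33.9 CPM against 0.15 to 1.80 (4.82 ± 0.46). Aqp1 was listed as a choroid plexus gene, though olfactory ensheathing glia are known to express it too. It was the only member of that list called, but all 7 tested members had log2 fold changes above 0, from 0.15 to 4.82 (median 0.95). Ttr, the defining transcript of the choroid plexus, stayed at 1.22 CPM or less in bulb-rich and 1.44 or less in bulb-poor libraries. Which cells the Aqp1 reads came from was not tested.

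Of 10 cortical excitatory neuron genes 2 were called lower in bulb-rich libraries and none higher, beside 6.08% of all genes called lower, and the median log2 fold change was -0.55. Camk2a, the calcium-dependent kinase of forebrain excitatory neurons, had 1723 to 5147 CPM against 3316 to 5914 (-0.48 ± 0.15), and Bhlhe22, a basic helix-loop-helix factor, had 27.2 to 67.5 against 64.9 to 104 (-0.77 ± 0.18). Camk2a lost its call in 18 of the alternative settings and Bhlhe22 in 4. Slc17a7, the vesicular glutamate transporter VGLUT1, was not called, with 803 to 1816 CPM (median 1196) against 1336 to 1822 (median 1578). Its lowest value was in control 1, and sedanolide 3, sedanolide 4 and LPS 3 lay within the bulb-poor range. Slc17a7 was thus at 803 CPM or more in each of the 14 libraries, all labelled as cortex. How much of it came from cortical cells was not tested.

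Layer and interneuron lists held members in both directions, beside 8.36% of all genes tested called higher and 6.08% lower. The calcium-binding protein Calb1 (-0.76 ± 0.22) and the nuclear receptor Rorb (-0.45 ± 0.12) of the upper layer list were called lower, while Mdga1, an adhesion protein that is not restricted to the cortex, was called higher with 23.5 to 121 CPM against 10.5 to 18.95 (2.19 ± 0.32). The list of deep layer genes had 3 of 11 called higher, Syt6 (2.15 ± 0.27), Nxph4 (2.30 ± 0.30) and Ccn2 (0.51 ± 0.15). Syt6, a synaptotagmin, had 40.2 to 157 CPM against 15.9 to 33.4, while Fezf2, the factor that specifies neurons projecting below the cortex, was at 7.77 to 51.7 against 36.6 to 67.7 and was not called. Of the 12 cortical interneuron genes Crh (1.13 ± 0.18), Adarb2 (0.95 ± 0.17) and Htr3a (0.31 ± 0.09) were called higher and Chodl (-0.71 ± 0.21) lower. Crh encodes corticotropin-releasing hormone, and Sst, somatostatin, was not called at -0.68 ± 0.23.

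Of 10 tested striatal genes 3 were called lower and 1 higher in bulb-rich libraries, beside 6.08% and 8.36% of all genes tested. The other 6 were not called, and the median log2 fold change was -0.36. The counts rested on single libraries: without LPS 1, 3 were called higher and 1 lower, and within sedanolide libraries the median was 0.32 with none called. Drd1, the D1 dopamine receptor, had 3.77 to 12.9 CPM against 12.4 to 23.3 (-0.88 ± 0.25), and the opioid precursor gene Pdyn had 6.62 to 28.6 against 27.98 to 42.3 (-0.84 ± 0.24). Penk, the enkephalin precursor, was called higher (1.24 ± 0.33), and the D2 pathway genes Drd2 and Adora2a were not called. Among the 15 largest decreases were also Lypd1 (-1.10 ± 0.25), a Ly6-family protein, Caln1 (-0.84 ± 0.20), a neuronal calcium-binding protein, Thrb (-0.88 ± 0.26), a thyroid hormone receptor, and Pde1a (-0.90 ± 0.28), a phosphodiesterase. Caln1 had 55.7 to 211 CPM against 223 to 291, with no overlap, and with Fam135b and Kcnab1 it was one of 3 genes among the 15 whose ranges were apart.

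Over 7 lists of glial, vascular and blood genes 9 of 71 tested members were called (12.7%), beside 14.4% of all genes tested. The count was 3 higher and 1 lower of 13 astrocyte genes, 1 higher of 12 oligodendrocyte genes, none of 7 precursor genes, 3 lower of 13 microglial genes, none of 12 endothelial genes, 1 higher of 9 tested pericyte and smooth muscle genes and none of 5 erythroid genes. Slc1a2, the main astrocytic glutamate transporter, was lower at -0.52 ± 0.11, while Gfap, an intermediate filament of astrocytes, was higher at 0.94 ± 0.20. P2ry12, the purine receptor of resting microglia, was lower at -0.44 ± 0.11, with 38.0 to 71.8 CPM against 54.9 to 101. None of 10 meningeal genes was called, but their summed level was 384 to 1533 CPM in bulb-rich libraries (median 917) and 167 to 1401 in bulb-poor ones (median 357). Its part in the results was not tested.

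Within the 7 bulb-rich libraries the amounts of 13 transcripts were set beside the amount of Cdhr1 by Pearson's r and Spearman's rho of log2(CPM + 1). Cdhr1 chose these libraries, most of the 13 genes are known bulb genes, and library composition is shared by all of them, so the correlations are a description and no p is given. Doc2g had r = 0.978 and rho = 0.893, and Shisa3 r = 0.967 and rho = 0.893. Dcx rose in the same order as Cdhr1 in all 7 libraries, with rho = 1 and r = 0.957.

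The projection neuron factor Eomes had r = 0.965 and rho = 0.714, and Th gave r = 0.965 and rho = 0.75. Omp gave r = 0.938, S100a5 0.929, Meis2 0.953 and Frzb 0.933. The slopes against Cdhr1 on the log2 scale were 1.01 for Eomes and Shisa3, 1.08 for Th and 1.15 for Doc2g. They were 1.68 for Omp and 1.42 for S100a5, and 0.53 for Meis2 and 0.79 for Dcx. Slc17a7 was lower where Cdhr1 was higher (r = -0.831), Slc17a6 gave r = 0.716 and Mbp, of myelin, r = -0.167.

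Without the 2 libraries farthest from the median of Cdhr1, r over the other 5 was 0.934 for Eomes, 0.947 for Doc2g, 0.979 for Shisa3, 0.808 for Omp, 0.915 for Th and -0.738 for Slc17a7. It was 0.799 for Meis2 and Frzb and 0.58 for Slc17a6. Leaving out each library in turn, the r of Eomes, Doc2g, Shisa3 and Th stayed between 0.943 and 0.99. Other genes varied more, with r as low as 0.883 for Omp, 0.885 for Frzb and 0.892 for S100a5. The r of Slc17a6 ran from 0.608 to 0.888 and that of Slc17a7 from -0.922 to -0.695.

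**Figure D3:**
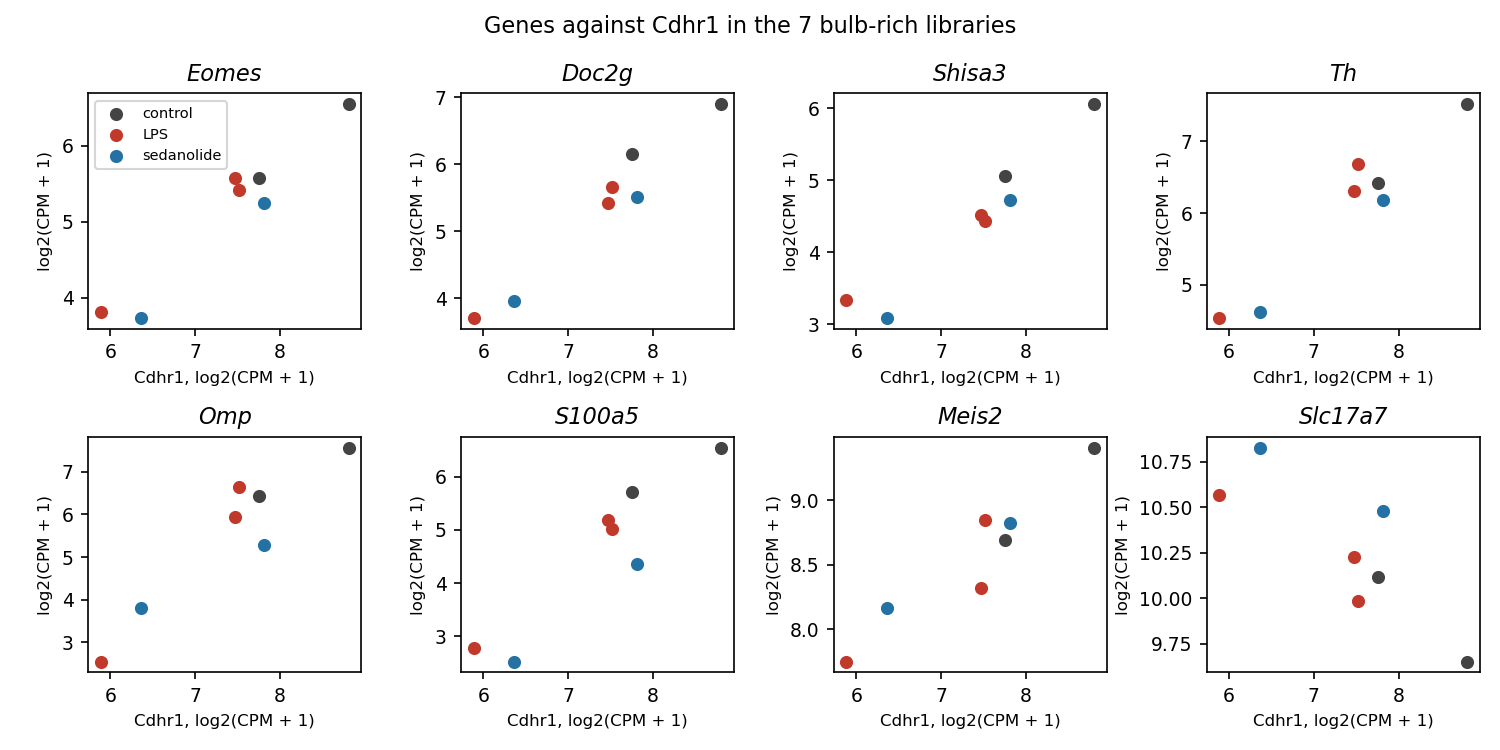
Level of 8 genes (vertical axes) against Cdhr1 (horizontal axes) in the 7 bulb-rich libraries, both as log2(CPM + 1), with a point per library coloured by treatment group. The bulb genes rise with Cdhr1 (r from 0.929 to 0.978) and Slc17a7 falls (r of -0.831).

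The amount of a gene relative to Cdhr1 in the same library varied to different degrees among genes. The CPM of Shisa3 was 0.0923 to 0.157 times that of Cdhr1, Eomes 0.152 to 0.264 times, Doc2g 0.18 to 0.328 times and Th 0.292 to 0.558 times. Each of these ratios thus spanned 1.7-fold to 1.91-fold over the 7 libraries, whereas Cdhr1 itself ranged from 58.1 to 448 CPM. The ratio to Cdhr1 spanned 1.93-fold for Dcx, 2.01-fold for Frzb, 2.44-fold for Meis2 and 5.06-fold for Slc17a6. The ratio of Omp to Cdhr1 spanned 6.5-fold. It was 0.42 in control 1, 0.394 in control 5, 0.543 in LPS 2, 0.343 in LPS 4, 0.169 in sedanolide 3, 0.159 in sedanolide 4 and 0.0835 in LPS 3. S100a5, from the same sensory neurons, spanned 4.13-fold, and both sedanolide libraries and LPS 3 were the lowest 3 for both genes. With 2 or 3 bulb-rich libraries per treatment group, no test of the ratio between groups was made. Slc17a7 over Cdhr1 spanned 14.6-fold.

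**Figure D4:**
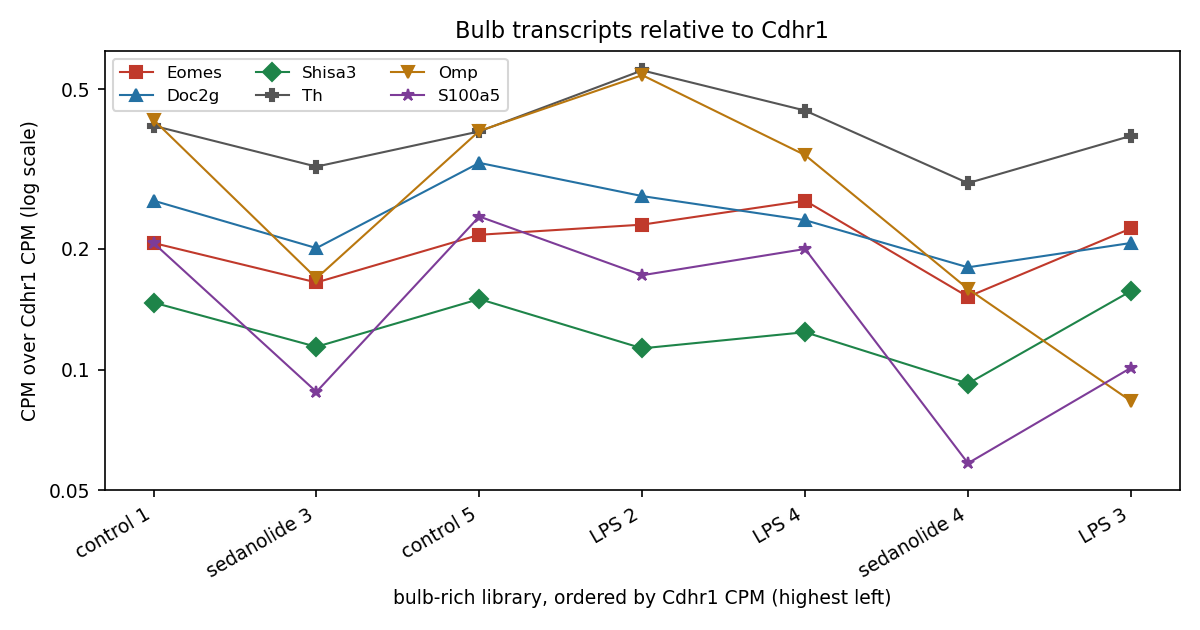
CPM of 6 bulb genes divided by the CPM of Cdhr1 (vertical, log scale) in each bulb-rich library, ordered from the most to the least Cdhr1. Eomes, Doc2g, Shisa3 and Th stay within a 1.91-fold span, while Omp and S100a5 span 6.5-fold and 4.13-fold.

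Over all genes with a mean log2 CPM of at least 1 (13815), those most like Cdhr1 within the bulb-rich libraries by Pearson's r of log2(CPM + 1) were Ms4a15 (r = 0.997), Steap2 (0.995), Tmem255a (0.994), Sertad2 (0.993), Gad2 (0.992), Tcp11l2 (0.991), Lrrc55 (0.990), Sema3c (0.990), Ppm1j (0.988) and Nrip3 (0.987), over 7 libraries each. At the other end were Zfp85os (r = -0.985) and Cited4 (-0.981). Both ends are the extremes of 13815 genes over 7 libraries, and control 1 lay far above the rest in Cdhr1. A high r therefore does not by itself mark a bulb gene. Likeness within the bulb-rich set and fold across the sets were separate quantities: Ms4a15 and the phosphatase gene Ppm1j were higher by log2 fold changes of 8.44 and 4.47, Gad2 by 0.76 and Sertad2 by 0.17.

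The treatment labels took no part in the rule, so the treatment comparisons were tested with the split as a covariate. With LPS the edgeR quasi-likelihood test called 1473 genes higher (8.43%) and 422 lower (2.42%) than in controls. Without the split term the same test called 1491 genes, all of which were among the 1895 called with it. Of the 404 genes gained, 33.4% were genes called across the split, beside 2.68% of the 1491 genes called either way and 14.4% of all genes tested. The median residual SD of log2 CPM fell from 0.241 to 0.215, and was smaller with the term for 67.3% of genes.

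Gfap was among the genes of largest fold gained. It had 121 to 373 CPM in controls and 452 to 851 in LPS libraries, with no overlap, and in both groups the bulb-rich libraries were higher than the bulb-poor ones. With the split its log2 change with LPS was 1.36 ± 0.25 (edgeR, adjusted p = 0.00227), and without it 1.38 ± 0.41 (adjusted p = 0.0564). The protease inhibitor gene A2m went from 1.38 ± 0.45 (edgeR, adjusted p = 0.0784) to 1.32 ± 0.28 (adjusted p = 0.00635). Hs3st5, a heparan sulfate sulfotransferase gene that was higher in bulb-rich libraries, fell with LPS by 1.16 on the log2 scale (SE 0.27, edgeR adjusted p = 0.0101 with the split and 0.123 without).

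The innate immune response to LPS appeared in both kinds of library. All 20 genes of that list were called higher with LPS in the edgeR fit with the split, beside 8.43% of all genes tested. Their median log2 change was 2.64, and the median was 2.39 from the bulb-rich and 3.02 from the bulb-poor libraries. Saa3, an acute phase protein, was at 0.10 CPM or less in the 4 controls, at 114, 145 and 107 CPM in the bulb-rich LPS libraries 2, 3 and 4, and at 126 and 207 CPM in the bulb-poor LPS libraries 1 and 5. Its log2 change was 11.4 ± 0.51 in bulb-rich and 11.6 ± 0.52 in bulb-poor libraries, both fitted on very few control counts. The chemokine gene Ccl5 changed by 6.04 ± 0.50 and 9.06 ± 0.65, the iron-binding lipocalin gene Lcn2 by 5.96 ± 0.51 and 4.26 ± 0.49, and the complement receptor gene C3ar1 by 1.99 ± 0.30 and 2.13 ± 0.32. None of these 4 genes passed the test of the difference between the 2 kinds of library (edgeR, adjusted p = 1 each). Of the 14 immediate early genes, which neurons induce on activity, 12 were called lower with LPS, beside 2.42% of all genes tested. Egr2 changed by -1.48 ± 0.16 in bulb-rich and -1.49 ± 0.18 in bulb-poor libraries, and Fos by -1.81 ± 0.25 and -1.59 ± 0.29.

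**Figure D5:**
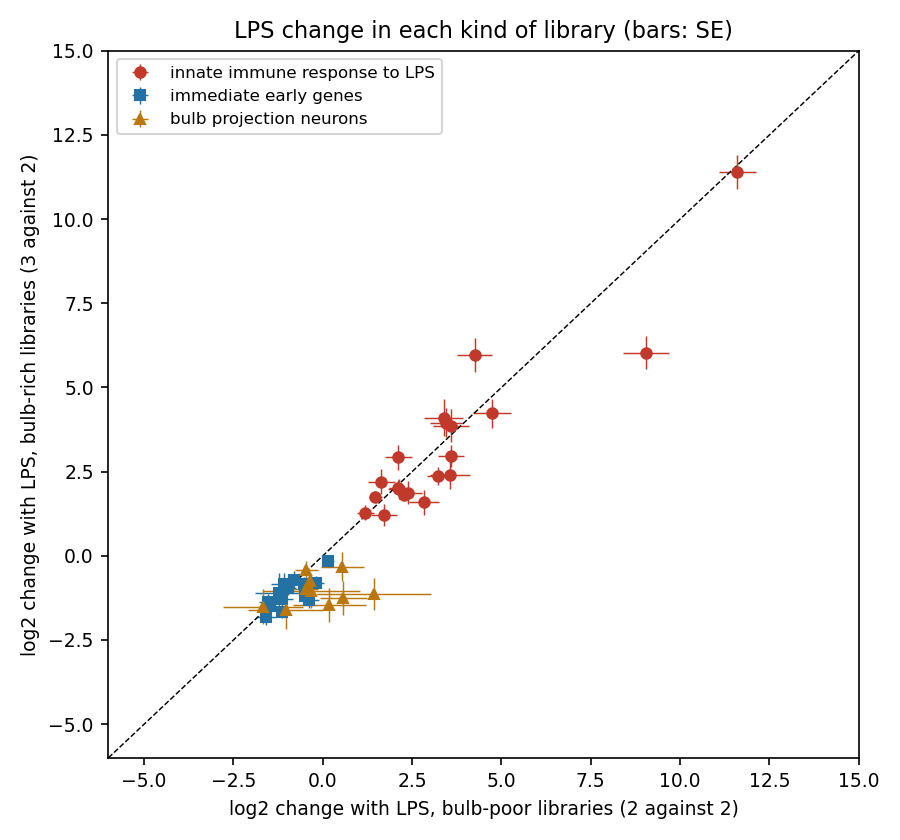
Fitted log2 change with LPS in bulb-rich libraries (3 LPS against 2 control, vertical) and bulb-poor libraries (2 against 2, horizontal) for members of 3 gene lists, with SE bars and a dashed line of equality; Barhl2 is left out as it has no count in bulb-poor libraries. The innate response genes lie above 0 in both kinds of library (medians of 2.39 and 3.02) and most immediate early genes below 0 (medians of -1.16 and -1.03).

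Tested over all genes, no LPS change differed between bulb-rich and bulb-poor libraries at an adjusted p under 0.05 (0 of 17470 genes, 0%, by edgeR; 539 at an unadjusted p under 0.05), and limma-voom also called 0 and DESeq2 called 4. The smallest p belonged to Nim1k, a protein kinase gene, at an adjusted p of 0.163 (edgeR). It had 50.03 and 37.98 CPM in the bulb-rich controls and 26.2 to 30.3 in the bulb-rich LPS libraries, but 24.3 and 23.6 in the bulb-poor controls and 38.04 and 53.6 in the bulb-poor LPS libraries. For the sedanolide change the corresponding count was also 0 (0% by edgeR; 1168 at an unadjusted p under 0.05), with 0 by limma-voom and 5 by DESeq2, and the smallest adjusted p was 0.49, for the kinetochore gene Kntc1. With 2 or 3 libraries in each of the 6 combinations, a difference that was not called is not shown to be absent.

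The sedanolide comparison changed more with the split term, and rested on few libraries. The edgeR test called 555 genes higher (3.18%) and 408 lower (2.34%) than in controls, against 331 in all without the term, every one of which was among the 963. Of the 632 genes gained 18.5% were called across the split, beside 2.72% of the 331 and 14.4% of all genes tested. The count of 963 fell to 57 without sedanolide 4, 71 without control 5, 225 without sedanolide 3, 282 without control 1, 338 without sedanolide 5 and 631 without control 2. Of 16 genes named by the rule for this comparison 2 kept their call in all 14 such fits.

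Of the 8 largest decreases with sedanolide, 4 were named bulb genes higher in bulb-rich libraries, and the bulb-rich controls held more Cdhr1 than most treated bulb-rich libraries. Stoml3 changed by -2.77 ± 0.71 (edgeR, adjusted p = 0.0403), S100a5 by -2.38 ± 0.66 (adjusted p = 0.0494), Shisa3 by -1.80 ± 0.49 (adjusted p = 0.0483) and Trh by -1.64 ± 0.41 (adjusted p = 0.0382). When the amount of Cdhr1 (log2 CPM) took the place of the 2-level split, the change of Shisa3 was -0.86 (edgeR, adjusted p = 0.225) and that of Stoml3 -1.60 (adjusted p = 0.0508). S100a5 was then at -1.14 (edgeR, adjusted p = 0.0293) and Trh at -1.003 (adjusted p = 0.0149). The mean log2 CPM of Eomes, Doc2g, Shisa3 and Omp holds Shisa3 itself and Omp, a sensory neuron gene like S100a5 and Stoml3. It can therefore take up part of a change in these genes. With this mean as the covariate, none of the 4 calls was kept. Stoml3 was then at -0.80 (edgeR, adjusted p = 0.201), S100a5 at -0.25 (adjusted p = 0.64), Trh at -0.47 (adjusted p = 0.19) and Shisa3 at -0.11 (adjusted p = 0.902). Shisa3 was also among the largest decreases with LPS, at -1.59 ± 0.46 with the split (edgeR, adjusted p = 0.0388), and was at -0.41 (adjusted p = 0.551) with Cdhr1 and at -0.04 (adjusted p = 0.968) with the mean of the 4 genes as covariate. Shisa3 had 65.6 and 32.3 CPM in the bulb-rich controls, 20.6, 9.12 and 21.9 in the bulb-rich LPS libraries and 25.4 and 7.48 in the bulb-rich sedanolide libraries. The LPS and sedanolide comparisons share the same controls.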

How the data were processed

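Per the labels' protocols, poly(A) RNA was made into stranded Illumina libraries. The deposited table gives raw counts, as whole numbers, of 57010 genes in the 19 libraries. Per the submitters' processing notes HISAT2, RSEM, StringTie, DESeq2 and fastp were used upstream. Their versions, the settings of the counting, its use of strand and the genome build are not given in the sources used here, so reads of overlapping or antisense partners could not be separated.

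From the counts of 14 libraries, TMM factors, CPM, the default edgeR expression filter by treatment group (17470 genes kept) and quasi-likelihood tests were computed with edgeR 4.0.16 in R 4.3.3. Tests were two-sided with Benjamini-Hochberg adjustment over all genes tested, and an SE is the log2 change over the square root of F. Models had treatment group and split, or a mean for each of the 6 combinations, and were tested on simulated data. Correlations used log2(CPM + 1). Two-sided permutation p-values counted pairings with |r| at least as large. The members, lists and tests were chosen with earlier results of these data known, and the lists cannot lend independent support. Named were the 15 largest folds each way across the split, members of bulb lists, each other list's most abundant and up to 4 called members, the 8 largest folds each way and the 6 largest gained with the split in each treatment comparison, the 10 smallest p for differences, and the 10 genes most like Cdhr1. Other list members are named for contrast, chosen after their values were seen. Replicate numbers were treated as names only. After group and split were taken out, 4 of 13 same-number pairs correlated above 0.1 (r from -0.388 to 0.389). With so few libraries per set this cannot decide whether the numbers pair libraries. No pair of libraries of the same treatment group agreed within sampling noise. Alternatives were other library factors, filters and tools (limma 3.58.1, DESeq2 1.42.0), continuous Cdhr1, the replicate block and leaving out each library. Some genes of these lists are not reported here.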

Additional observations from a re-analysis of the deposited data

Results flagged for a closer look

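In 152 sets of values tested for a single library standing far from the rest of its set, 11 stood out (7.24%), and chance alone flags about 1 in 20 (5%). Control 1 was far above the other 6 bulb-rich libraries in Cdhr1 (448 CPM against 58.1 to 223), Eomes (92.5 against 12.3 to 46.7), Shisa3 (65.6 against 7.48 to 32.3) and Ms4a15 (62.6 against 6.55 to 29.7). It also had the most olfactory receptor reads, 1027.

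Among bulb-poor libraries, control 2 stood out in Shisa3 at 1.92 CPM, where the others had at most 0.59, sedanolide 5 in Frmd7 at 1.57 CPM against at most 0.59, and LPS 1 in Aqp1 at 1.80 CPM against at most 0.56. In the sedanolide group, sedanolide 3 had 19.7 CPM of S100a5, and the other 4 libraries, of which 1 was bulb-rich, had 0.049 to 4.74. In the LPS group, LPS 4 was high in S100a9 (19.7 CPM against 13.7 to 15.1) and in Fos (54.4 against 23.4 to 30.3). Control 1 was the only control with a count of Marco, at 0.037 CPM.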

How the results depend on the processing

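Leaving out each library in turn, the counts of genes called ranged from 696 to 3814 across the split, from 1195 (without control 5) to 2417 for LPS, from 57 to 1184 for sedanolide and from 0 to 2 for the difference in LPS change (2 without LPS 1). The number of 13 genes with a Pearson correlation with Cdhr1 at an adjusted permutation p under 0.05, a description since Cdhr1 chose the libraries, ranged from 0 to 12. With no filter on low counts the calls were 4185 across the split, 2957 for LPS, 2426 for sedanolide, and 192 and 266 for the differences in LPS and sedanolide change. DESeq2 called 2121 genes for sedanolide and 4 and 5 for the differences. Without the split term sedanolide gave 331. The split gave 5436 calls with continuous Cdhr1 in its place, 555 within controls, 1 within LPS and 22 within sedanolide libraries. With the replicate block, whose numbers are not known to pair the libraries, sedanolide gave 4 calls. With Cdhr1 as covariate and without control 1, chosen after seeing the data, LPS gave 1742 calls and sedanolide 744. Among named genes, the only sign change of a called value was C4b within LPS libraries (-0.0047). Of the 97 named genes called across the split 57 kept their call without any 1 library, of 19 for LPS 14, and of 16 for sedanolide 2. Genes with fewer than about 1 CPM, such as Rtp2 and the receptor genes, rest on few counts at this depth.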
